A study of Mus musculus with 2 samples.

Results

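Microvilli are held together and shaped by a small set of proteins, and 10 of their genes were followed here in medullary thymic epithelial cells of mice with targeted alleles of Hnf4a and Hnf4g and of their controls. The genes were Cdhr2, Cdhr5, Ush1c, Anks4b, Myo7b, Calml4, Vil1, Pls1, Myo1a and Cdh17. They were taken by symbol from the 55487 genes of the deposited table, and each was found once. The list was chosen with earlier results of these data known.

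Microvilli are finger-like projections of the apical cell surface, packed into the brush border of enterocytes and present as a tuft on tuft cells. In enterocytes, the protocadherins Cdhr2 and Cdhr5 bind each other between the tips of neighbouring microvilli. Their tails attach to a complex of the scaffold proteins Ush1c (harmonin) and Anks4b with the motor Myo7b and its light chain Calml4. Vil1 (villin) and Pls1 (plastin 1) bundle the actin core, Myo1a ties that core to the membrane, and Cdh17 is the liver-intestine cadherin of the lateral membrane. Hnf4a and Hnf4g are nuclear receptors that drive genes of gut and liver epithelium. Medullary thymic epithelium contains mimetic cells, each expressing genes typical of some tissue outside the thymus, for example gut, skin or muscle.

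The study compared 4 mutant samples, Hnf4dTEC, with 3 control samples, Hnf4ctrl, of C57BL/6 mice, all pooled into 1 droplet run by sample-specific antibody tags. Hnf4dTEC samples were Foxn1(cre/+) Hnf4a(fl/fl) Hnf4g(-/-), so that Hnf4a was deleted by a cre expressed from the thymic epithelial gene Foxn1, while no cell of the mouse had a normal copy of Hnf4g. Hnf4ctrl samples were Foxn1(cre/+) Hnf4a(fl/+) Hnf4g(+/-), so the controls carried the same cre, could themselves lose 1 allele of Hnf4a in these cells and had 1 null allele of Hnf4g. The cells were thymic epithelial cells of the mTEClo gate without surface Pdpn and CD104, sorted after depletion of CD45+ cells. The labels give no age, and nothing in them ties a sample to 1 animal, so the spread that p-values measure may be technical.

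The authors' cell table held 5890 mutant and 3295 control cells, 9185 in all, in 15 classes. Mutant samples had 1373 to 1652 cells and 19321440 to 23501741 unique molecular identifiers (UMIs, each marking 1 captured RNA molecule), and control samples had 801 to 1579 cells and 10127838 to 25821970 UMIs. The mix of classes differed within each genotype: Tuft cells were 36.7% to 52.7% of mutant samples and 31.1% to 55.6% of control samples, lowest in mutant 4 and control 3. Of the marker lists fixed for 11 classes, each was highest in the class it was written for. Summed markers of thymocytes were at 25.7 to 31.1 CPM (UMIs per 1000000 UMIs) in mutant and 14.3 to 33.9 CPM in control samples, and those of fibroblasts and endothelium were at 2.44 to 7.27 CPM over the 7 samples. The list for myeloid and B cells was at 3930 to 5780 CPM in mutant and 3310 to 6920 CPM in control samples, and it includes Cd74, which thymic epithelium also expresses.

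The targeted genes were read first. Hnf4g was at 88.3, 80.8, 86.9 and 77.8 CPM in mutant samples 1 to 4, against 123, 116 and 115 CPM in control samples 1 to 3. It fell with a log2 fold change (mutant over control) of -0.50 ± 0.06 (SE) at an edgeR adjusted p of 0.0384. Hnf4a was at 0.682 to 2.26 CPM in mutant and 1.68 to 3.16 CPM in control samples and missed the threshold (log2 fold change -0.72, SE 0.40, edgeR adjusted p = 0.874). The call for Hnf4g was lost without any 1 of the 7 samples (edgeR adjusted p = 0.072 to 0.184), on leaving Entero-hepato cells out (edgeR adjusted p = 0.406) and, at a log2 fold change of -0.11, with classes weighted to 1 mix (limma adjusted p = 0.601). That mix held only classes with at least 10 cells in every sample, so Entero-hepato and Microfold cells were not in it. The labels do not say which part of either gene was removed, so these 3' tag counts check the labels only in part.

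Over all cells, Anks4b, Calml4 and Vil1 were lower in the mutant samples, and none of the 10 genes was higher. All 10 passed the filter on low counts and were tested with edgeR's quasi-likelihood test. The 3 that fell stand against 0.179% of 21187 genes that fell and 0.00472% that rose, at an adjusted p under 0.05. The log2 fold change was negative for 10 of 10 genes, with a median of -0.75, while 49.1% of all tested genes were negative and their median was 0.00377. For 6 of the 10 genes every mutant sample lay below every control sample, which held for 4.41% of all tested genes. Counts over all cells depend on how many cells of each class a sample held, so fewer cells of a class and less RNA per cell cannot be told apart in them. Entero-hepato cells were 0% to 0.121% of mutant samples and 0.999% to 3.48% of control samples, and with this class left out 2 of the 10 genes fell, Anks4b and Calml4. Of all 21144 genes tested in that fit, 0.0426% fell. The plot of levels in each sample shows all 10 genes.

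**Figure D1:**
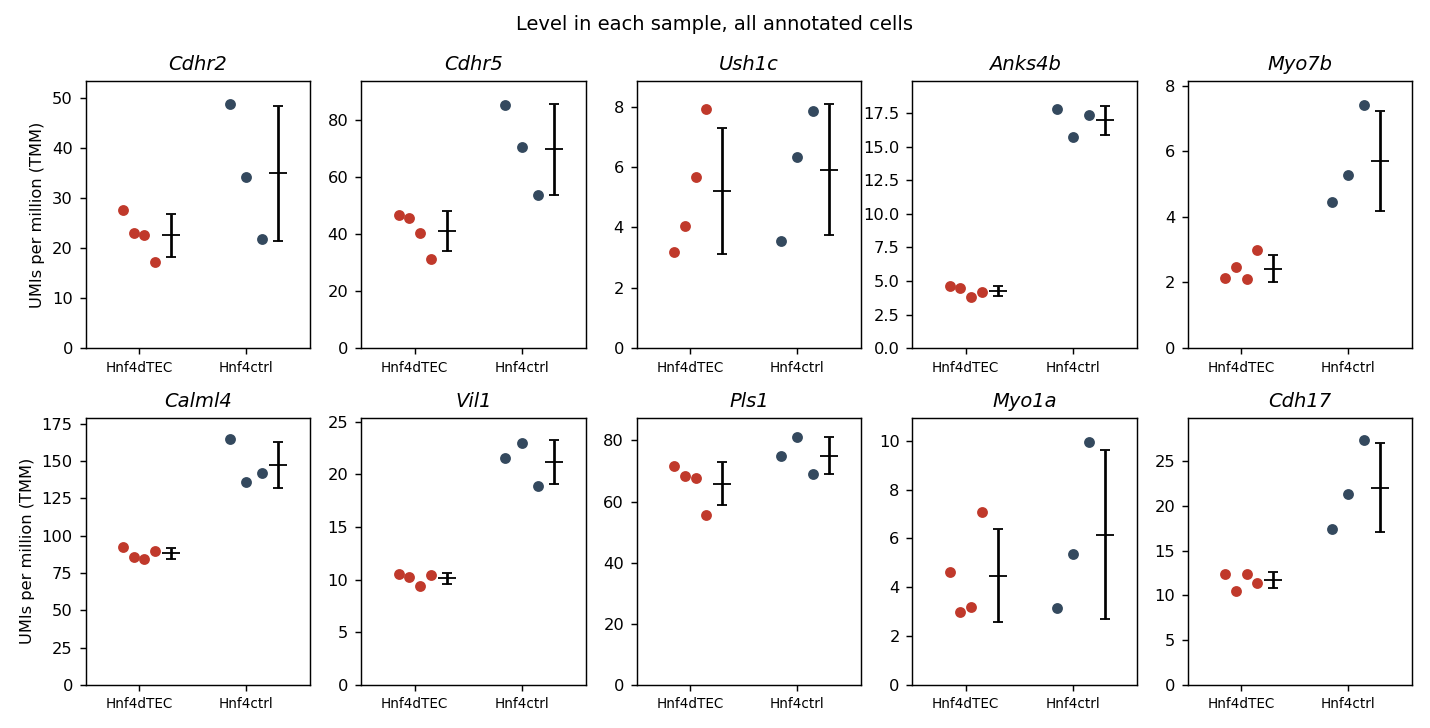
Level of each gene in each sample over all annotated cells (y axis, CPM after TMM scaling, from 0), with Hnf4dTEC samples in red on the left and Hnf4ctrl samples in dark blue on the right. Black marks give the mean and SD of 4 mutant and 3 control samples. The points do not overlap between genotypes for Cdhr5, Anks4b, Myo7b, Calml4, Vil1 and Cdh17.

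Of the tip protocadherins, Cdhr2 was at 27.6, 23.0, 22.5 and 17.1 CPM in mutant samples 1 to 4, against 48.8, 34.2 and 21.7 CPM in control samples 1 to 3. Control 3 lay below mutants 1 to 3, so the groups overlapped. Its log2 fold change was -0.61 ± 0.27 (SE) at an edgeR adjusted p of 0.755. Cdhr5, its binding partner, was at 46.8, 45.6, 40.4 and 31.3 CPM in mutants, against 85.45, 70.5 and 53.6 CPM in controls. The groups did not overlap, yet control 3 was close to mutant 1, and the test was not passed (log2 fold change -0.76, SE 0.18, edgeR adjusted p = 0.29). The lowest sample of each genotype for both genes was the one with the smallest share of Tuft cells. With Tuft cells left out, Cdhr5 fell by 1.68 on the log2 scale, at an edgeR adjusted p of 0.0231. That fit kept Entero-hepato cells, so the mix of classes still entered it. They held 347 of all 3124 control and 69 of all 3477 mutant Cdhr5 UMIs.

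Of the scaffold and motor genes, Anks4b, which links the protocadherin complex together through Ush1c, had the lowest adjusted p of the 10. It was at 4.635, 4.51, 3.82 and 4.15 CPM in mutant samples 1 to 4, against 17.8, 15.7 and 17.4 CPM in control samples 1 to 3. The genotypes were far apart and each was tight, with 4.28 ± 0.370 CPM in mutants and 17.0 ± 1.09 CPM in controls (SD, n = 4 and 3). Its log2 fold change was -1.99 ± 0.11 (SE) at an edgeR adjusted p of 0.00197, and it passed under every one of 15 alternative settings, with log2 fold changes between -2.33 and -1.49. Anks4b (ENSMUSG00000030909.6) is on chromosome 7, plus strand, with start 120173858 and end 120185586 in the mm10 build. Ush1c, the PDZ scaffold, was at 3.19, 4.04, 5.675 and 7.93 CPM in mutants, against 3.56, 6.32 and 7.87 CPM in controls. The groups overlapped over their whole range, and the log2 fold change was -0.21 ± 0.36 (SE) at an edgeR adjusted p of 0.996, turning to 0.06 without control 3.

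Myo7b, the motor that carries the complex to the tips, was at 2.13, 2.46, 2.10 and 2.995 CPM in mutant samples, against 4.45, 5.27 and 7.41 CPM in control samples. The groups did not overlap, but the test was not passed (log2 fold change -1.25, SE 0.22, edgeR adjusted p = 0.135). Calml4, the calmodulin-like light chain of that motor, was at 92.4, 85.3, 84.4 and 89.9 CPM in mutants, against 165, 136 and 142 CPM in controls. It was lower in every mutant sample than in any control sample and fell with a log2 fold change of -0.74 ± 0.08 (SE) at an edgeR adjusted p of 0.031. Without control 2, control 3 or any 1 of the 4 mutant samples, Calml4 no longer passed, with edgeR adjusted p-values of 0.0588 to 0.153.

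Of the actin genes, Vil1 was at 10.5, 10.2, 9.34 and 10.4 CPM in mutant samples 1 to 4, against 21.6, 23.0 and 18.9 CPM in control samples 1 to 3. The mutant values were nearly equal to each other and all lay below the lowest control. Vil1 fell with a log2 fold change of -1.06 ± 0.09 (SE) at an edgeR adjusted p of 0.0127, but without control 2 or any 1 of the 4 mutant samples its edgeR adjusted p was 0.0566 to 0.104, and without Entero-hepato cells it was 0.0537. Pls1, the other bundler, was at 71.5, 68.25, 67.85 and 55.6 CPM in mutants, against 75.1, 81.2 and 68.9 CPM in controls. Control 3 lay below mutant 1 and near mutants 2 and 3, and Pls1 did not pass (log2 fold change -0.19, SE 0.10, edgeR adjusted p = 0.852).

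Myo1a, the membrane-linked motor, was at 4.635, 2.99, 3.18 and 7.10 CPM in mutants, against 3.17, 5.35 and 9.95 CPM in controls, a wide overlap. It did not pass (log2 fold change -0.49, SE 0.43, edgeR adjusted p = 0.961), and its log2 fold change was 0.07 without control 3. Cdh17 was at 12.4, 10.5, 12.4 and 11.4 CPM in mutants, against 17.4, 21.4 and 27.35 CPM in controls. Its groups did not overlap, but it missed the threshold (log2 fold change -0.93, SE 0.15, edgeR adjusted p = 0.101) and passed without control 1 (edgeR adjusted p = 0.0453) and without Tuft cells (edgeR adjusted p = 0.0474). Entero-hepato cells, kept in the fit without Tuft cells, held 223 of all 1149 control and 57 of all 993 mutant Cdh17 UMIs. Vil1 (ENSMUSG00000026175.12) is on chromosome 1, plus strand, with start 74409376 and end 74435559, and Calml4 (ENSMUSG00000032246.14) on chromosome 9, plus strand, with start 62858080 and end 62875921, all in mm10. Vil1 overlaps the opposite-strand gene Usp37, Calml4 the opposite-strand pseudogene Gm10653, Ush1c the opposite-strand Gm9860, and Myo7b the opposite-strand Gm16344 and Gm16345. The sources used here do not state whether the counting used strand, so reads from these overlaps cannot be told apart.

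The sequences before the gene starts of the 3 genes that fell are shown because HNF4 proteins bind a known DNA element and their genes were the ones targeted. They are the 250 bases upstream of the start in RefSeq's annotation of GRCm38.p6, plus strand, at chr7:120173608-120173857 for Anks4b, chr9:62857854-62858103 for Calml4 and chr1:74409134-74409383 for Vil1. Capitals mark the only match to the searched motifs.

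Anks4b: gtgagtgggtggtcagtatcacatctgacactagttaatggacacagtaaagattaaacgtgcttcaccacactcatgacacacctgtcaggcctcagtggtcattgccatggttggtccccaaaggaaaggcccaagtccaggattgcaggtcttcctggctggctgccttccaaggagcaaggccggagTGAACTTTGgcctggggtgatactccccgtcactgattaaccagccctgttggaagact

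Calml4: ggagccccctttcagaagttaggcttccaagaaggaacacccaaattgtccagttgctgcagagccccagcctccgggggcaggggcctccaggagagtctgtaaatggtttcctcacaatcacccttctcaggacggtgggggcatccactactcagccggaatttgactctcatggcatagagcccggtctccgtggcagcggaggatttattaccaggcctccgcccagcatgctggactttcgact

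Vil1: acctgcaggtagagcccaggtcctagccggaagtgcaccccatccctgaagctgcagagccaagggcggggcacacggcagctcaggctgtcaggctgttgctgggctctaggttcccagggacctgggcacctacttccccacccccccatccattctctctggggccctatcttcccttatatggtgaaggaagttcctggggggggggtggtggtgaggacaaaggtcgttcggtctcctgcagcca

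The letters CAAAGTCCA, CAAAGTTCA and CAAAGNNCA were searched on both strands from 250 bases before to 50 bases after each start, and the third motif contains the others. They were found in 1 of the 8 genes with a promoter in the RefSeq table, Anks4b, in the same 9 bases. Its letters TGAACTTTG begin 59 bases before the start and read CAAAGTTCA on the opposite strand. Of 32851 mouse promoters of the same length, 0.39% held CAAAGTTCA, 0.475% held CAAAGTCCA and 6.36% held CAAAGNNCA. The Cdhr2, Cdhr5, Ush1c, Calml4, Vil1, Pls1 and Myo1a windows held none of these letters. Myo7b and Cdh17 had no entry. A match is a description of the sequence and not a bound site, and the absence of a match concerns these letters and this window alone.

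The 10 genes came from different cells. The authors made the classes from the same cells, so levels by class are given as descriptions. In control cells, 82.8% of Cdhr2 UMIs and 59.5% of Cdhr5 UMIs came from Tuft cells, which held 35.7% of all UMIs. Tuft cells also held 53.9% of Calml4, 44.5% of Vil1 and 32.0% of Pls1 UMIs. For Vil1, Neuroendocrine cells added 23.6% and Entero-hepato cells 14.1%, and the Entero-hepato class, named for its gut and liver genes, held 2.38% of all UMIs. Anks4b was spread over several classes, with 23.9% in Tuft, 14.6% in Aire-adjacent, 13.7% in Entero-hepato, 13.2% in Neuroendocrine and 12.7% in Keratinocyte cells. Myo7b was led by Neuroendocrine cells, with 37.7%, and Cdh17 by Microfold and Entero-hepato cells, with 20.4% and 19.4%. Ush1c and Myo1a had their largest shares in Aire-expressing cells, with 44.3% and 34.0%. The plot of UMI shares gives all classes.

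**Figure D2:**
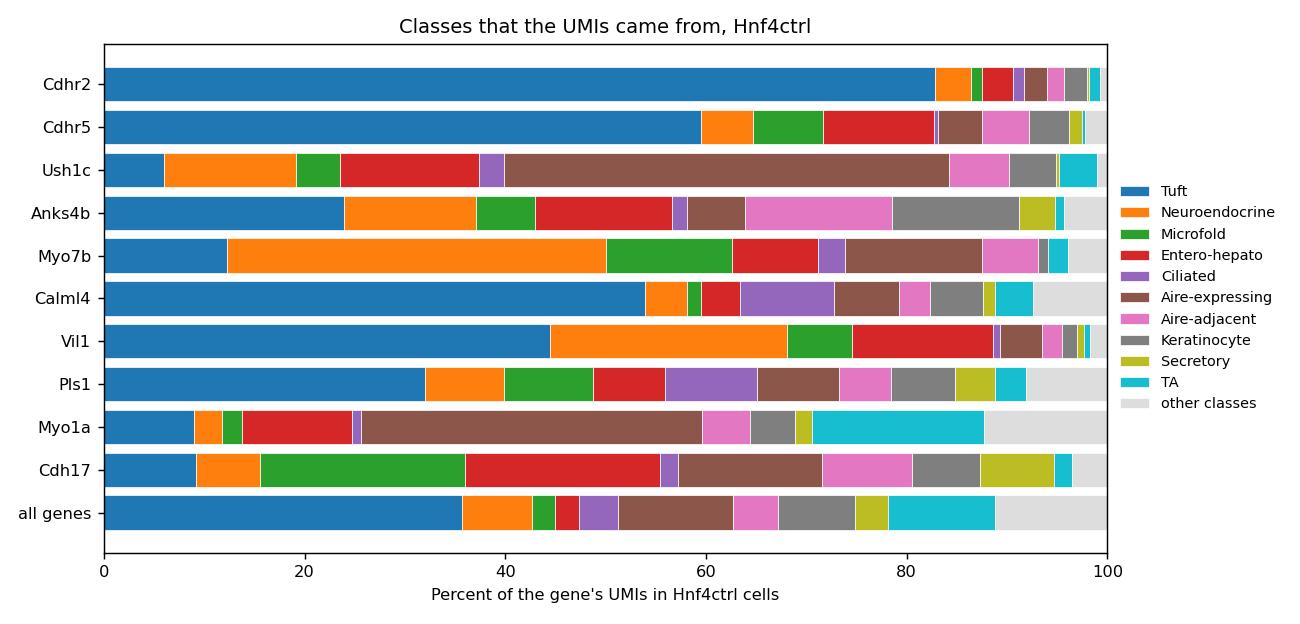
Percent of each gene's UMIs that came from each class (x axis) in Hnf4ctrl cells, with 1 bar per gene and a last bar for all genes together. The Tuft part of the bar is longest for Cdhr2, at 82.8%, and the Neuroendocrine part is longest for Myo7b, at 37.7%.

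By level, Entero-hepato cells were the highest class in controls for 5 of the 10 genes, Cdhr5, Ush1c, Anks4b, Vil1 and Myo1a. Pooled over control cells, Cdhr5 was at 303 CPM in Entero-hepato, 200 CPM in Microfold, 108 CPM in Tuft and 68.3 CPM in Klk-rich cells, and at 2.16 CPM in proliferating TA cells. Anks4b was at 98.6 CPM in Entero-hepato, 55.0 CPM in Aire-adjacent, 44.2 CPM in Microfold, 41.9 CPM in Klk-rich and 32.4 CPM in Neuroendocrine cells. Vil1 was at 122 CPM in Entero-hepato, 69.5 CPM in Neuroendocrine, 58.95 CPM in Microfold and 25.6 CPM in Tuft cells, and Muscle cells had no Vil1 UMI. Cdhr2 differed in being highest in Tuft cells, at 71.0 CPM, ahead of Entero-hepato cells at 40.1 CPM. Myo7b was at 35.0 CPM in Microfold and 33.9 CPM in Neuroendocrine cells, neighbours in the order that overlapped between samples (23.4 to 45.0 CPM and 26.6 to 36.3 CPM). Ush1c was at 38.4 CPM in Entero-hepato and 25.5 CPM in Aire-expressing cells, and Myo1a was at 34.0 CPM and 21.9 CPM in those 2 classes. Cdh17 was at 215.5 CPM in Microfold and 195 CPM in Entero-hepato cells, and at 52.7 CPM or less in the others. Calml4 and Pls1 alone had UMIs in every class, Calml4 from 19.1 CPM in 10 Ionocytes to 345.5 CPM in Ciliated cells and Pls1 from 21.0 CPM in TA to 289 CPM in Microfold cells. The Calml4 value in Ionocytes rests on 2 UMIs. Cdhr5 and Myo1a lacked UMIs in that class alone, where 3 UMIs equal 28.6 CPM.

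**Figure D3:**
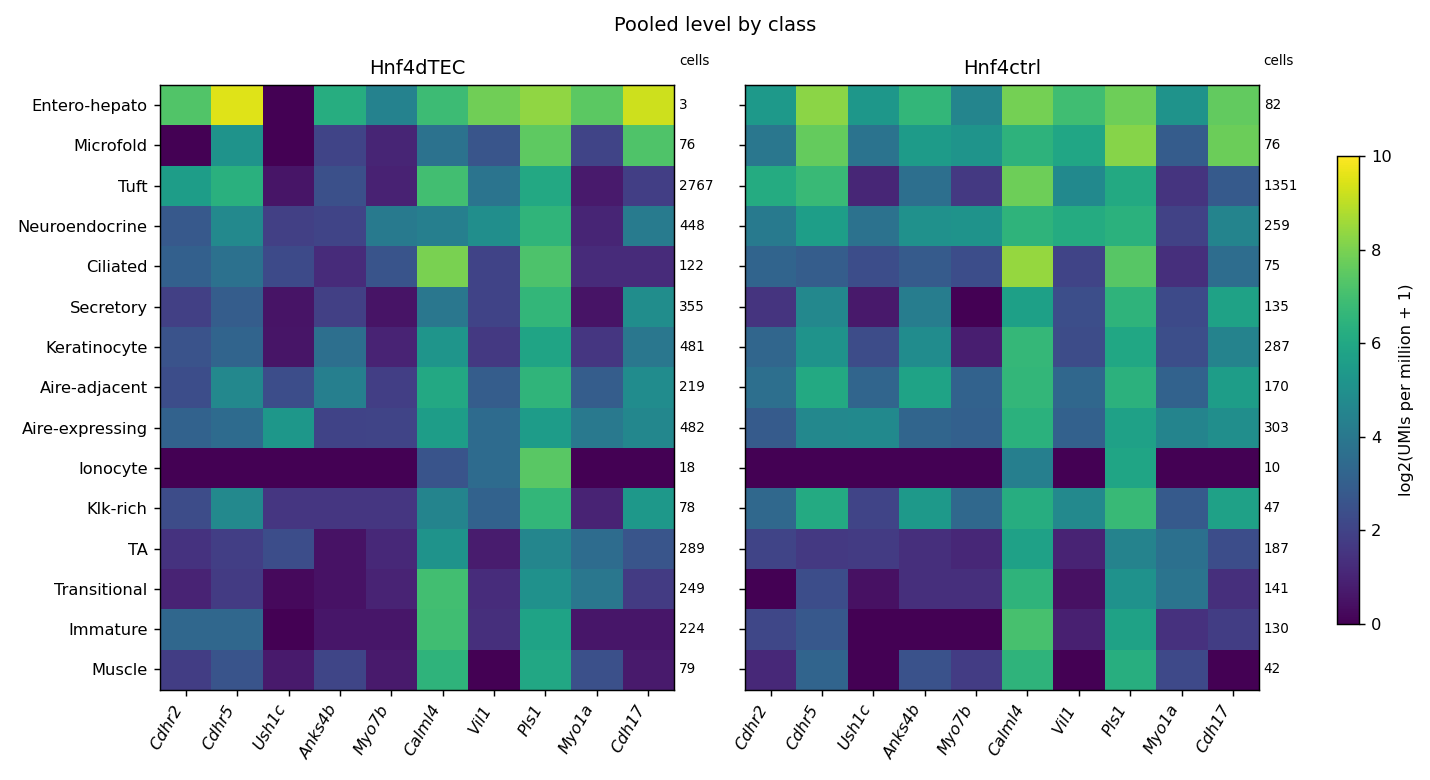
Pooled level of each gene (columns) in each class (rows) in Hnf4dTEC cells on the left and Hnf4ctrl cells on the right, as log2(CPM + 1), with the number of cells beside each row. The 3 Entero-hepato cells of the mutant samples give unstable values, and the mutant Microfold row is below the control one for 10 of 10 genes. Of all genes tested in Microfold cells, 49.1% had a negative edgeR log2 fold change.

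Across the 15 classes, the control profiles of the genes were compared as log2(CPM + 1). Over 45 pairs of the 10 genes, Pearson's r ranged from 0.0298 for Pls1 with Myo1a to 0.905 for Cdhr5 with Anks4b, with a median of 0.654. Cdhr5 was also close to Vil1 (0.902), Cdhr2 to Vil1 (0.845) and Ush1c to Myo7b (0.82). Calml4 correlated with Cdhr2 at 0.654 and with none of the other genes above 0.489. These points share 1 run, and classes differ in depth and in number of cells, so the values are descriptions over 15 classes.

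Among 15817 genes with at least 100 control UMIs, the profiles most like Cdhr2 were those of Zmiz1os1 (r = 0.927), Myrfl (0.888) and Gm17767 (0.879). Those most like Cdhr5 were Lpl, lipoprotein lipase (0.912), Gm12828 (0.91) and Nrp2 (0.907). Anks4b was nearest to Sema4a (0.934), Abhd11os (0.915) and Btnl5-ps (0.912). Ush1c was nearest to 1810017P11Rik (0.924), Pcsk2 (0.923) and Tmprss15, the gut protease enteropeptidase (0.912). Myo7b was nearest to Aplp1 (0.896), Rdh16f2 (0.874) and Slamf7 (0.87). Among the profiles nearest to Calml4 were Ppp1r14c (0.881) and Lrrc61 (0.868). Vil1 was nearest to Zmiz1os1 (0.905), Ctrb1 (0.895) and Gm12828 (0.884). Pls1 was nearest to Lamp1 (0.927), Amdhd2 (0.888) and Pnp (0.859). Myo1a was nearest to Srgn (0.906), Surf4 (0.895) and Fscn1, the filopodial actin bundler (0.875). Cdh17 was nearest to Cyp4f16 (0.967), Abhd11os (0.954) and Prorp (0.951). Zmiz1os1 and Gm12828 each stood near a protocadherin and Vil1, and Abhd11os near both Anks4b and Cdh17.

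Within Tuft cells, chemosensory cells with apical microvilli, Anks4b, Calml4 and Vil1 fell in the mutant samples. The filter on low counts left 7 of the 10 genes to test there, without Ush1c, Myo7b and Myo1a, which had 17, 34 and 24 UMIs in mutant and 19, 37 and 32 UMIs in control Tuft cells. The 3 that fell stand against 0.0678% of 14760 genes tested in Tuft cells. All values within classes are CPM of the UMIs of that sample and class. Vil1 was at 13.8, 13.0, 12.8 and 14.98 CPM in mutant samples 1 to 4, against 25.5, 26.2 and 25.2 CPM in control samples 1 to 3. The values of each genotype were narrow and far from the other's, with a log2 fold change of -0.92 ± 0.09 (SE) at an edgeR adjusted p of 0.0048. Calml4 was at 133, 106, 119 and 138 CPM in mutants, against 217, 203 and 233 CPM in controls. It fell without overlap, with a log2 fold change of -0.82 ± 0.09 (SE) at an edgeR adjusted p of 0.00512. Calml4 and Vil1 kept their calls in Tuft cells under each of the 11 alternatives.

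Anks4b in Tuft cells was at 4.12, 4.02, 4.12 and 5.67 CPM in mutants, against 10.0, 9.54 and 13.9 CPM in controls. The groups did not overlap, and the log2 fold change was -1.35 ± 0.195 (SE) at an edgeR adjusted p of 0.0338. It no longer passed without any 1 of the 3 control samples or without mutant 1, 2 or 3, with edgeR adjusted p-values of 0.054 to 0.147. The protocadherins were lower in every mutant than in any control sample but missed the threshold. Such separation held for 6 of the 7 genes tested in Tuft cells, and for 706 of all 14760 genes tested there. Cdhr2 was at 49.8, 42.2, 49.2 and 44.5 CPM in mutants, against 85.5, 74.3 and 57.5 CPM in controls (log2 fold change -0.64, SE 0.12, edgeR adjusted p = 0.108). Cdhr5 was at 80.9, 78.7, 79.4 and 79.5 CPM in mutants, against 128.5, 111 and 89.5 CPM in controls (log2 fold change -0.47, SE 0.10, edgeR adjusted p = 0.163). For both, control 3 was the control nearest the mutants, and without it both passed, with edgeR adjusted p-values of 0.00641 for Cdhr2 and 0.00645 for Cdhr5. Calls over all genes also rose without control 3: 24 of 15419 genes fell and 28 rose, against 10 and 3 of 14760 with all samples. Cdh17, with 93 mutant and 105 control UMIs, did not pass (log2 fold change -1.20, edgeR adjusted p = 0.295). Pls1 was at 60.8 to 69.2 CPM in mutant and 58.3 to 74.7 CPM in control samples, with a log2 fold change of -0.05 ± 0.09 (SE) at an edgeR adjusted p of 0.919.

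Markers of Entero-hepato cells overlapped between the genotypes in Tuft cells. Summed over 5 markers (Apoa4, Apob, Fabp1, Apoc3 and Muc13), they were at 84.2 to 105 CPM in mutant and 81.1 to 124 CPM in control Tuft cells, and none was at 0 in either.

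Within Neuroendocrine cells, which carry genes of hormone-secreting cells, Anks4b, Calml4 and Cdhr5 fell. There 9 of the 10 genes were tested, without Myo1a, and the 3 that fell stand against 0.336% of 11297 genes. Anks4b was at 3.14, 2.28, 3.93 and 3.07 CPM in mutant samples 1 to 4, against 34.9, 30.1 and 32.9 CPM in control samples 1 to 3. No sample came near the other genotype, from 18 UMIs in 448 mutant cells and 109 UMIs in 259 control cells. The log2 fold change was -3.33 ± 0.26 (SE) at an edgeR adjusted p of 0.000252. Calml4 was at 23.2, 24.3, 12.6 and 14.7 CPM in mutants, against 106, 92.2 and 80.7 CPM in controls. It fell with a log2 fold change of -2.26 ± 0.21 (SE) at an edgeR adjusted p of 0.000874. Both kept their calls under each of the 11 alternatives run in these cells.

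Cdhr5 in Neuroendocrine cells was at 26.4, 25.1, 25.9 and 24.5 CPM in mutants, against 43.25, 58.2 and 43.8 CPM in controls. The groups did not overlap, and the log2 fold change was -0.91 ± 0.16 (SE) at an edgeR adjusted p of 0.0422. It missed the threshold without any 1 of the 7 samples, with edgeR adjusted p-values of 0.0737 to 0.194. Vil1 was at 23.9, 19.0, 29.9 and 43.5 CPM in mutants, against 81.5, 66.0 and 67.45 CPM in controls, and was just short of the threshold (log2 fold change -1.245, SE 0.23, edgeR adjusted p = 0.0525). Mutant 4 was the highest of its group, and without it Vil1 passed (edgeR adjusted p = 0.00693). Ush1c was at 1.84 to 3.93 CPM in mutant and 9.70 to 13.8 CPM in control samples, from 16 and 42 UMIs (log2 fold change -2.10, SE 0.40, edgeR adjusted p = 0.0583). Myo7b was at 11.9 to 20.2 CPM in mutant and 26.6 to 36.3 CPM in control samples (log2 fold change -1.045, SE 0.24, edgeR adjusted p = 0.126). Neither overlapped between genotypes, while Cdhr2, Cdh17 and Pls1 did. In Neuroendocrine cells every mutant sample lay below every control sample for 6 of the 9 genes, and for 551 of all 11297 genes tested. Pls1 had 69.9 to 107 CPM in mutant and 76.1 to 96.5 CPM in control samples (log2 fold change 0.13, SE 0.15, edgeR adjusted p = 0.902). Entero-hepato markers summed to 14.9 to 36.4 CPM in mutant and 28.3 to 45.5 CPM in control Neuroendocrine cells, and their part in these values was not tested.

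**Figure D4:**
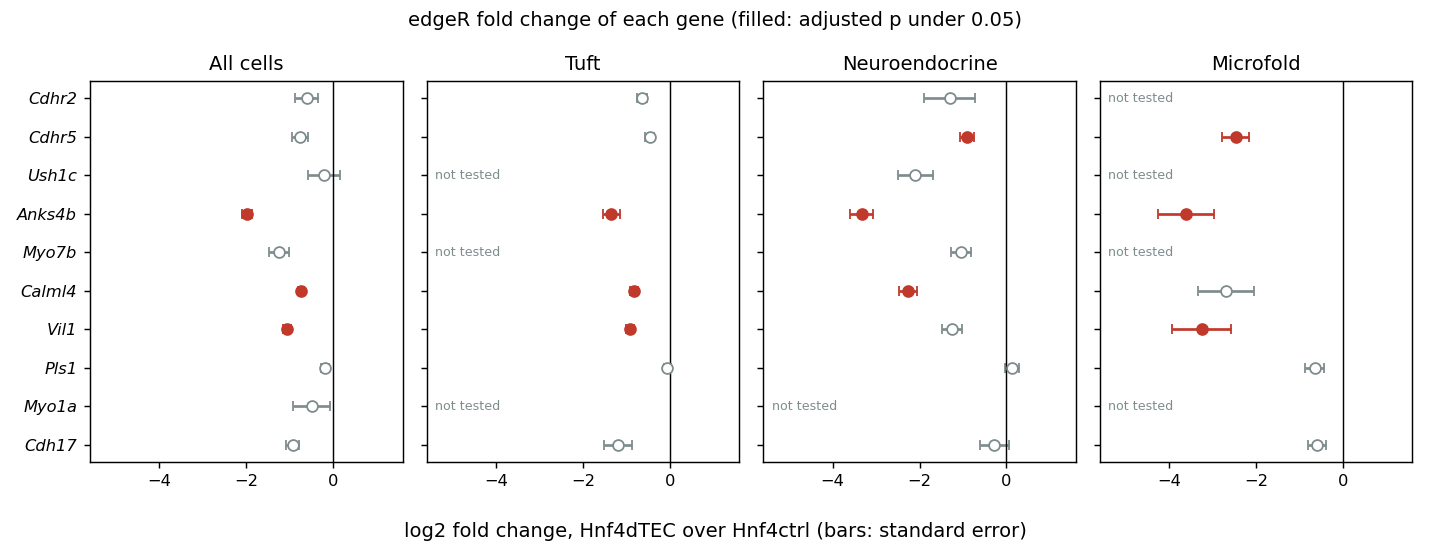
log2 fold change of each gene, Hnf4dTEC over Hnf4ctrl (x axis), with its standard error, over all cells and within 3 classes, from edgeR on UMIs summed per sample. Filled red points have an adjusted p under 0.05. Anks4b is filled in all 4 panels, and Pls1 stays between -0.65 and 0.13 and is filled in none.

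Microfold cells, which resemble the antigen-sampling cells of gut lymphoid tissue, showed large differences on few cells. The test used 3 mutant samples with 20 to 26 cells and 3 control samples with 18 to 33 cells, since mutant 4 had 8 cells, under the minimum of 10. The filter left 6 of the 10 genes, of which Cdhr5, Anks4b and Vil1 fell, against 2.34% of 4656 genes tested. Cdhr5 was at 39.5, 42.0 and 25.55 CPM in mutant samples 1 to 3, against 180.2, 154 and 236 CPM in control samples 1 to 3. It fell with a log2 fold change of -2.47 ± 0.31 (SE) at an edgeR adjusted p of 0.00375 and kept its call under each of the 11 alternatives. Anks4b had 0, 2 and 1 UMIs in mutants, against 17, 11 and 20 UMIs in controls, or 36.8 to 63.8 CPM in controls. Vil1 had 0, 3 and 2 UMIs in mutants, against 10, 12 and 42 UMIs in controls, or 37.5 to 80.7 CPM in controls. Anks4b (log2 fold change -3.62, SE 0.65, edgeR adjusted p = 0.0191) and Vil1 (log2 fold change -3.255, SE 0.67, edgeR adjusted p = 0.0295) rested on these few molecules. Without any 1 sample, Vil1 missed the threshold (edgeR adjusted p = 0.0568 to 0.168), and Anks4b did so in 5 of 6 cases, all but the one without mutant 2 (0.0543 to 0.0815).

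The other genes tested in Microfold cells did not pass. Calml4 had 0, 2 and 10 UMIs in mutants, against 16, 35 and 44 UMIs in controls (log2 fold change -2.70, SE 0.64, edgeR adjusted p = 0.0525), and passed without mutant 3 (edgeR adjusted p = 0.0218). Pls1 was at 169, 206 and 185 CPM in mutants, against 312, 241 and 305 CPM in controls (log2 fold change -0.65, edgeR adjusted p = 0.138). Cdh17 was at 133, 154 and 157 CPM in mutants, against 203, 248 and 204 CPM in controls (log2 fold change -0.59, edgeR adjusted p = 0.173). Of the genes left out by the filter, Myo7b had 1 UMI in all 76 mutant cells and 38 UMIs in all 76 control cells. Cdhr2 had 0 UMIs in mutant and 16 UMIs in control cells, and Ush1c 0 UMIs in mutant and 14 UMIs in control cells. Myo1a had 3 UMIs in mutant and 7 UMIs in control cells. The markers of Entero-hepato cells moved with these values: summed over the same 5 markers they were at 57.5 to 329 CPM in mutant Microfold cells and at 1930 to 2010 CPM in control Microfold cells, and none was at 0 in either. Their part in the result was not tested.

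Entero-hepato cells could not be tested, since the mutant samples held 3 of them and the control samples 82. The 3 mutant cells nevertheless carried the genes: 69 Cdhr5, 57 Cdh17, 31 Pls1, 22 Vil1, 17 Myo1a, 15 Cdhr2, 11 Calml4, 7 Anks4b and 2 Myo7b UMIs, with no Ush1c UMI. All 3 had at least 1 UMI of Cdhr2, Cdhr5, Anks4b, Calml4, Vil1, Pls1 and Cdh17, and 1 cell held all 17 Myo1a UMIs. The counts were uneven between the 3 cells. The highest cell for each gene held 46 of the Cdhr5 and 44 of the Cdh17 UMIs, and whether it was the same cell was not looked at. For Pls1, Anks4b and Calml4 the highest cell held 23, 4 and 5 UMIs. Pooled, Cdhr5 was at 721 CPM in mutant and 303 CPM in control Entero-hepato cells, a ratio of 2.38 with an exact 95% interval of 1.81 to 3.09. Anks4b was at 73.1 CPM in mutant and 98.6 CPM in control cells, a ratio of 0.742 (0.292 to 1.58), and Calml4 was at 115 CPM in mutant and 237 CPM in control cells, a ratio of 0.484 (0.239 to 0.88). These intervals cover counting error only, not the differences between 3 cells. The 3 mutant cells had a median of 31385 UMIs, against 12910.5 in the 82 control cells, and whether they were doublets was not tested.

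In the other 8 classes tested (Aire-adjacent, Aire-expressing, Ciliated, Immature, Keratinocyte, Secretory, TA and Transitional), none of the 10 genes passed in edgeR. Of 35 tests of these genes there, 26 had a negative log2 fold change, 12 had an unadjusted p under 0.05, which 5.07% of all gene tests there had, and DESeq2 called 2 lower, against 0.0444% of its gene tests. Over these classes together 0.0127% of 78489 gene tests were lower at an adjusted p under 0.05. The lowest edgeR adjusted p was that of Anks4b in Secretory cells, 0.056, where it was at 3.23, 3.35, 2.22 and 2.29 CPM in mutants, against 15.8, 17.6 and 18.9 CPM in controls. The 5 Entero-hepato markers summed to 21.7 to 65.1 CPM in mutant and 80.9 to 154 CPM in control Secretory cells, with Apob at 0 in both, and their part in this value was not tested. The 2 calls of DESeq2 were both in Keratinocyte cells, Calml4 with a DESeq2 adjusted p of 0.00126 and Cdhr5 with 0.00671. There Calml4 was at 25.4, 33.5, 31.0 and 61.7 CPM in mutants, against 99.4, 87.3 and 109 CPM in controls, with an edgeR adjusted p of 0.0894. Anks4b was at 8.81, 11.9, 9.87 and 16.55 CPM in mutant Keratinocyte cells, against 30.0, 30.7 and 26.4 CPM in control ones (log2 fold change -1.33, edgeR adjusted p = 0.0958). Mutant 4 was the mutant nearest the controls for both genes, and without it Calml4 (edgeR adjusted p = 0.00492) and Anks4b (edgeR adjusted p = 0.0463) passed in Keratinocyte cells. The Entero-hepato markers summed to 6.77 to 21.8 CPM in mutant and 12.9 to 61.4 CPM in control Keratinocyte cells, and their part was not tested.

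Ush1c in Aire-expressing cells, the class with its largest share, ran the other way. It was at 31.7, 32.8, 41.35 and 42.4 CPM in mutant samples, against 8.08, 28.1 and 27.0 CPM in control samples. The groups did not overlap, control 1 was the lowest with 4 UMIs in 28 cells, and the test was not passed (log2 fold change 0.73, SE 0.32, edgeR adjusted p = 0.972). How many of all genes separated in this way was not counted in Aire-expressing cells. Myo1a in the same cells was at 9.715 to 21.7 CPM in mutant and 16.2 to 23.7 CPM in control samples and did not pass either (edgeR adjusted p = 0.995). Pooled over cells, Anks4b, Calml4 and Myo1a were lower in mutants in 10 of the 11 classes tested, Cdh17 in 9, Cdhr5, Ush1c and Vil1 in 8, Cdhr2 in 7, and Myo7b and Pls1 in 6. Of all genes tested in each class, 49.1% to 51.9% had a negative edgeR log2 fold change. Some of these directions rest on very few UMIs: Myo1a in Immature cells had 1 in mutant and 2 in control cells. Ush1c had 1 UMI in each genotype in Transitional cells.

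**Figure D5:**
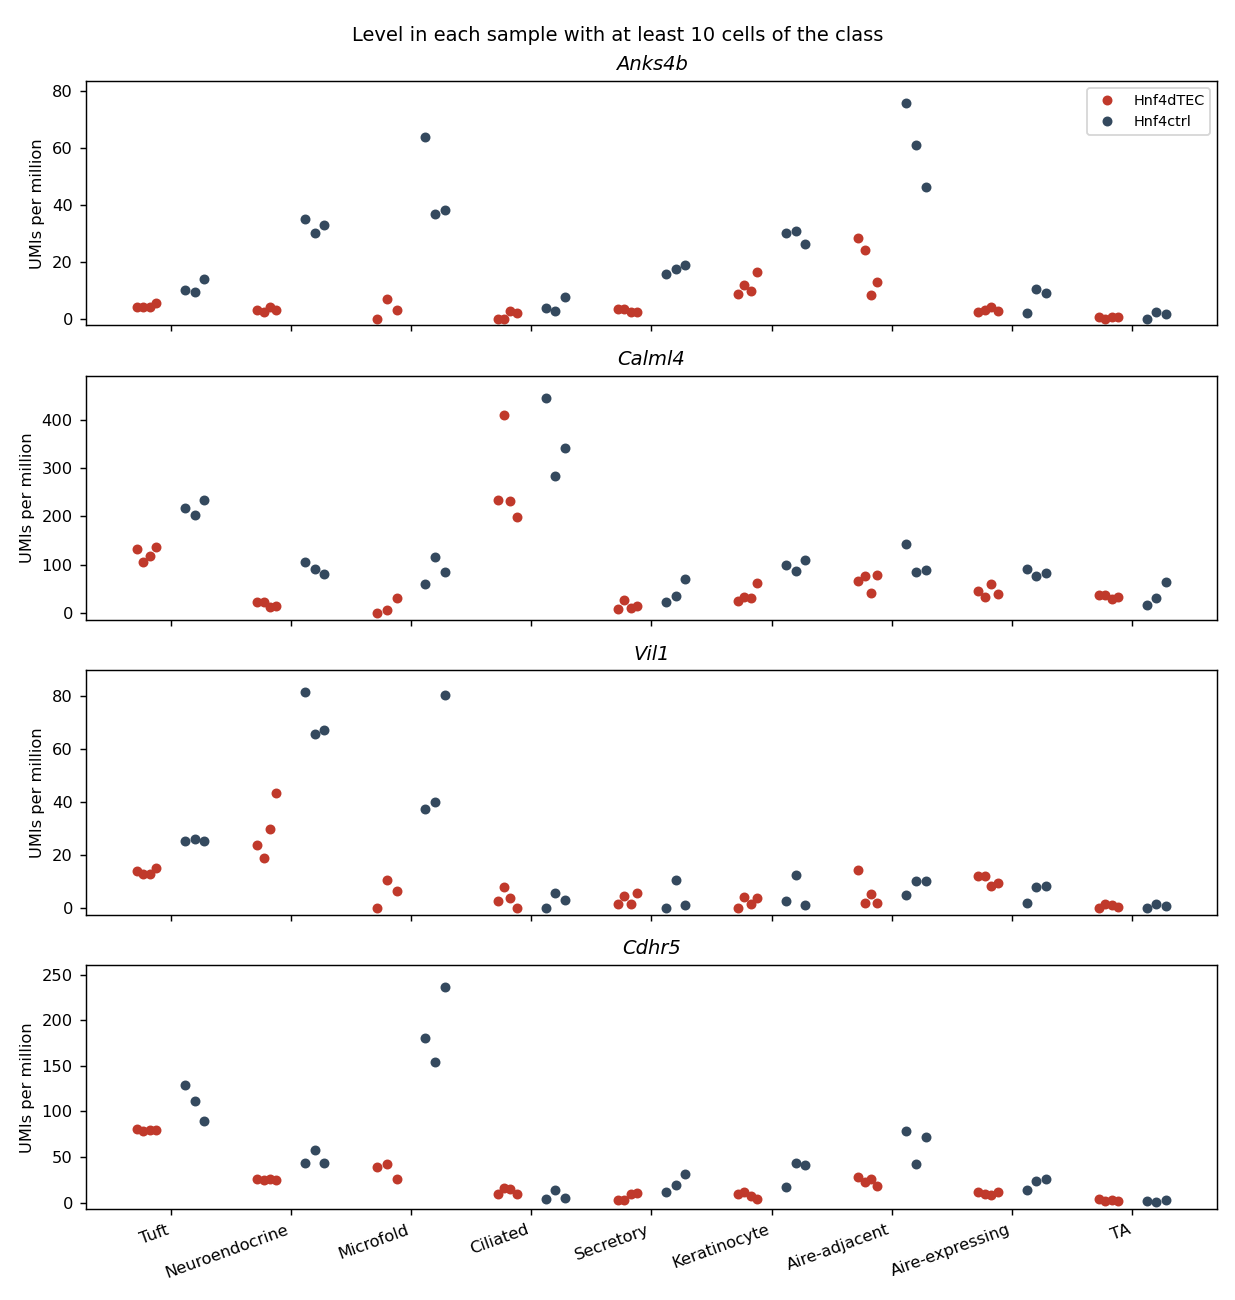
Level of Anks4b, Calml4, Vil1 and Cdhr5 (y axis, CPM of the sample and class) in each sample with at least 10 cells of the class, in 9 classes, with Hnf4dTEC in red left of Hnf4ctrl in dark blue. In Neuroendocrine cells the mutant points of Anks4b lie between 2.28 and 3.93 CPM and the control points between 30.1 and 34.9 CPM.

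Whether the genotype effect differed between classes was tested directly, as an interaction of genotype and class in edgeR, over the 10 classes with at least 10 cells in every sample. Microfold cells were not among them. Calml4 was the only one of the 10 genes that passed (edgeR adjusted p = 0.0261), against 0.0674% of 16314 genes tested, and the other 9 had edgeR adjusted p-values of 0.247 or more. Its log2 fold change was -2.26 in Neuroendocrine, -1.43 in Keratinocyte and -0.82 in Tuft cells, and -0.40 (SE 0.25) in Ciliated cells, its highest level among the tested classes. In Ciliated cells it was at 235, 410, 233 and 199 CPM in mutants, against 445, 283 and 342 CPM in controls, and the groups overlapped. Set against Tuft cells 1 at a time, none of the 10 genes passed in any of the other 9 classes of this fit, and the difference for Calml4 in Neuroendocrine cells was -1.45 (SE 0.41, edgeR adjusted p = 0.792). The interaction for Calml4 was not passed without control 1, control 2, mutant 1, mutant 3 or mutant 4, with edgeR adjusted p-values of 0.092 to 0.318. For Anks4b, the interaction had an edgeR adjusted p of 0.629.

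Shares of cells with at least 1 UMI describe the same classes per cell, with no test. Each cell was thinned to 2500 UMIs to compare classes of unequal depth, which left out 51 cells with fewer. Cdhr5 was then seen in 5.33% of mutant and 38.2% of control Microfold cells, in 4.73% of mutant and 12.0% of control Neuroendocrine cells, and in 16.4% of mutant and 22.7% of control Tuft cells. Without thinning, the shares for Cdhr5 were 32.9% in mutant and 76.3% in control Microfold cells, 20.1% in mutant and 39.4% in control Neuroendocrine cells, and 44.0% in mutant and 53.1% in control Tuft cells. In Muscle cells, which should lack the gene, thinned shares were 0 of 79 mutant and 0 of 42 control cells, which allow up to 3.8% and 7.14%. Without thinning, the Muscle shares for Cdhr5 were 10.1% in mutant and 7.14% in control cells. Keratinocyte cells were also expected to lack gut brush border genes, yet held Cdhr5 in 1.47% of mutant and 5.71% of control cells after thinning.

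Anks4b was seen after thinning in 0.225% of mutant and 7.36% of control Neuroendocrine cells and in 0.905% of mutant and 2.75% of control Tuft cells. Its Muscle shares were 2.53% in mutant cells and 0 of 42 in control cells. Its Keratinocyte shares were 1.68% in mutant and 8.57% in control cells, the latter above the control Neuroendocrine share. The mutant Neuroendocrine and Tuft shares lay under the mutant Muscle share, which rested on 2 of 79 cells. The control Tuft share lay under the 7.14% that 0 of 42 cells allow. Whether these shares are background was not tested. Vil1 was seen in 8.33% of mutant and 11.2% of control Neuroendocrine cells and in 3.58% of mutant and 6.69% of control Tuft cells, with 0 of 79 mutant and 0 of 42 control Muscle cells. Keratinocyte cells showed Vil1 in 0.421% of mutant and 0.714% of control cells. Calml4 was seen in 22.4% of mutant and 35.4% of control Tuft cells, but also in 21.5% of mutant and 23.8% of control Muscle cells, so no class served as its background. In Neuroendocrine cells Calml4 was seen in 2.70% of mutant and 18.6% of control cells. Without thinning, Anks4b was seen in 3.57% of mutant and 30.9% of control Neuroendocrine cells, Vil1 in 23.2% of mutant and 42.1% of control ones, and Calml4 in 11.2% of mutant and 37.8% of control ones. In Tuft cells the unthinned shares were 4.41% of mutant and 9.99% of control cells for Anks4b, 13.2% of mutant and 21.8% of control cells for Vil1, and 59.1% of mutant and 71.7% of control cells for Calml4. Median UMIs per cell before thinning were 12316 in mutant and 12031 in control Tuft cells, and 12186 in mutant and 12286 in control Neuroendocrine cells. They were 11415.5 in mutant and 13939.5 in control Microfold cells, and 18551 in mutant and 19251.5 in control Muscle cells.

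The number of the 10 genes seen in 1 thinned cell was counted as well. It averaged 0.613 in mutant and 1.87 in control Microfold cells, 0.439 in mutant and 0.888 in control Neuroendocrine cells, and 0.678 in mutant and 0.997 in control Tuft cells. Without thinning the averages were 1.91 in mutant and 4.28 in control Microfold cells, and 1.98 in mutant and 2.54 in control Tuft cells. Muscle cells averaged 0.43 in mutants and 0.405 in controls, mostly from Calml4 and Pls1. At least 3 of the genes were seen in 0 of 75 mutant and 22 of 76 control Microfold cells, and in 2.5% of mutant and 7.13% of control Tuft cells. In control Entero-hepato cells the average was 2.3, and 41.5% of 82 cells had at least 3 of the genes.

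Other genes of microvilli and related proteins were read from 4 lists. Of a list of 33 other genes of the microvillus and brush border cytoskeleton, 32 were tested over all cells, of which 2 fell and none rose, and the median log2 fold change was -0.05. Of all 21187 genes tested, 0.179% fell. Eps8, which caps and bundles actin at microvillus tips, was at 31.6, 29.8, 29.5 and 31.6 CPM in mutants, against 44.0, 41.7 and 41.1 CPM in controls before TMM scaling. It fell with a log2 fold change of -0.45 ± 0.06 (SE) at an edgeR adjusted p of 0.0384. Krt20, a keratin of differentiated gut epithelium, was at 13.5, 10.7, 10.03 and 13.8 CPM in mutants, against 22.6, 30.4 and 26.6 CPM in controls. It fell with a log2 fold change of -1.13 ± 0.14 (SE) at an edgeR adjusted p of 0.0384. Eps8 no longer passed without any 1 of the 7 samples (edgeR adjusted p = 0.072 to 0.184), and Krt20 without any 1 but control 1 (edgeR adjusted p = 0.0839 to 0.184). With classes weighted to 1 mix the log2 fold changes were -0.23 for Eps8 and -0.18 for Krt20, and neither passed in limma. Entero-hepato and Microfold cells were not in that mix. The other 3 lists, of hair cell relatives of the adhesion complex, other cadherins and calmodulins, held 24 genes. Of these, 22 were tested over all cells and edgeR called 0, with 1 at an unadjusted p under 0.05 and 0 called by DESeq2. Of all 21187 genes tested, 1408 had an unadjusted p under 0.05 in edgeR.

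Within classes the same list of 33 gave 1 lower gene of 29 tested in Tuft cells, 3 lower of 27 in Neuroendocrine cells, and 1 lower and 1 higher of 21 in Microfold cells. Of all genes tested, 0.0678% in Tuft, 0.336% in Neuroendocrine and 2.34% in Microfold cells were lower, and 0.687% in Microfold cells were higher. Myo15b, an unconventional myosin gene, was at 47.4, 41.5, 40.3 and 46.8 CPM in mutant Tuft cells, against 79.4, 78.5 and 62.7 CPM in control Tuft cells (log2 fold change -0.74, SE 0.09, edgeR adjusted p = 0.0207). In Neuroendocrine cells Myo15b also fell (log2 fold change -1.58, edgeR adjusted p = 0.0224), with 6.29 to 9.88 CPM in mutant and 21.9 to 28.3 CPM in control samples. Myo6, a motor that moves toward the base of microvilli, was at 83.4 to 98.8 CPM in mutant and 153 to 160 CPM in control Neuroendocrine samples (log2 fold change -0.77, edgeR adjusted p = 0.0107). Myo10, a motor of filopodia, was at 76.65 to 95.85 CPM in mutant and 133 to 166 CPM in control Neuroendocrine samples (log2 fold change -0.81, edgeR adjusted p = 0.0187). In Microfold cells Eps8 fell (log2 fold change -1.67, edgeR adjusted p = 0.0182), with 35.1 to 61.05 CPM in mutant and 120 to 156 CPM in control samples. All of these calls in classes were lost when certain single samples were left out. Myo15b was lost in Tuft cells without control 1, control 2 or mutant 2 (edgeR adjusted p = 0.0796 to 0.162), and in Neuroendocrine cells without control 1, control 2, mutant 1 or mutant 3 (0.0584 to 0.115). Myo6 was lost without control 2 or mutant 1 (edgeR adjusted p = 0.0639 and 0.0549), and Myo10 without control 1, control 2, mutant 1 or mutant 2 (0.0527 to 0.103). Eps8 in Microfold cells was lost without control 2, control 3, mutant 2 or mutant 3 (edgeR adjusted p = 0.054 to 0.0602).

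Cobl, an actin nucleator of the brush border, was the one gene of these lists that rose. In Microfold cells it was at 172, 94.4 and 95.8 CPM in mutant samples 1 to 3, against 30.0, 16.7 and 19.2 CPM in control samples 1 to 3. Its log2 fold change was 2.42 ± 0.37 (SE) at an edgeR adjusted p of 0.0104, where 0.687% of genes tested in Microfold cells rose, and it passed under each of 11 alternatives. The direction was opposite to that of Eps8, Anks4b, Cdhr5 and Vil1 in the same cells. Of the 3 other lists, 14 genes were tested in Tuft, 12 in Neuroendocrine and 7 in Microfold cells. edgeR called 0 in each, with 2, 1 and 2 at an unadjusted p under 0.05, and DESeq2 called 0. Of all genes, 1290 of 14760, 940 of 11297 and 758 of 4656 had an unadjusted p under 0.05 in these classes. In the other 8 classes edgeR called 0 of 286 tests of the 4 lists, with 29 at an unadjusted p under 0.05, and DESeq2 called 1. Of all edgeR gene tests in these 8 classes, 5.07% had an unadjusted p under 0.05.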

How the data were processed

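The authors deposited a matrix of UMI counts per gene and droplet barcode, as whole numbers that were not normalised, with 18089 barcodes, 55487 genes and 15 antibody features, which were kept out of all totals. Per the submitters' processing notes it came from Cell Ranger 6.1.0, Seurat 4.0.2 and build mm10, while the matrix header names Cell Ranger 7.0.0. The authors' deposited cell table gave 9185 barcodes a sample and a class, and all were kept. Doublets were not called anew, and whether the authors removed them is not given in the sources used here. In 45 cells the strongest antibody tag was that of another sample. All barcodes came from 1 library, so no barcode is shared between libraries.

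UMIs of each sample were added up over all its cells and over its cells of each class, and these sums were tested with edgeR 4.0.16 (filterByExpr, TMM, glmQLFit, glmQLFTest; limma 3.58.1, R 4.3.3), two-sided, with Benjamini-Hochberg adjustment over all genes tested and a threshold of 0.05. The library of antibody tags belongs to no group and was not compared. A class was tested where 3 or more samples of each genotype had 10 or more of its cells. The difference of the genotype effect between classes was tested as an interaction with sample as a factor, over the 10 classes with at least 10 cells in every sample, which left out Microfold cells. DESeq2 1.42.0, edgeR without TMM or without the filter, each sample left out, the replicate number as a block, other selections of cells and limma on classes weighted to 1 mix were alternatives. The mix held the same 10 classes as the interaction, so it left out Entero-hepato, Microfold, Klk-rich, Muscle and Ionocyte cells. The fits were tested on simulated data. The SE of a log2 fold change is its size divided by the square root of its F value. Levels over all cells are CPM after TMM, and those within classes CPM of the class. Cells were thinned to 2500 UMIs with random seed 1, and the 95% intervals are exact binomial ones that cover counting error alone.

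The genes and lists were chosen with earlier results of these data known. Named genes were all 10 members, the 3 nearest profiles of each, list genes that passed, Hnf4a and Hnf4g, and 2 genes that these rules and marker lists held are not reported here. Positions are from GENCODE mouse release 21, which held 54435 of the gene identifiers with the same version, and in which Ush1c and Myo7b were matched by identifier without its version. Promoter sequences are RefSeq's, and protein sequences were not used here. UMIs are given beside low values.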

Additional observations from a re-analysis of the deposited data

Results flagged for a closer look

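Anks4b in Tuft cells had 1 mutant sample above the others of its group. Mutant 4 was at 5.67 CPM, from 39 UMIs, while mutants 1, 2 and 3 were at 4.12, 4.02 and 4.12 CPM, and all control samples were at 9.54 CPM or more. Of 26 groups of 4 mutant samples looked at, this was the only one with such a gap. Chance gives about 1 in 20, so a gap in 1 of 26 groups does not set this sample apart.

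Calml4 had a genotype effect that differed between classes, with an interaction adjusted p of 0.0261 in edgeR. Its log2 fold change was -2.26 (SE 0.21) in Neuroendocrine cells, with 12.6 to 24.3 CPM in 4 mutant samples and 80.7 to 106 CPM in 3 control samples. It was 0.35 (SE 0.22) in Transitional cells, pooled at 123 CPM in mutant and 89.9 CPM in control cells. Set against Tuft cells 1 at a time, the difference passed in none of the 9 other classes of that fit, which did not hold Microfold cells.

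The 8904 barcodes that the authors' cell table leaves out held 31427 UMIs of the 10 genes, or 320 CPM of all UMIs in them. The annotated cells held 40811 UMIs, or 306 CPM. These barcodes have no sample or class and entered no comparison.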

How the results depend on the processing

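Anks4b over all cells, Anks4b and Calml4 in Neuroendocrine cells, Calml4 and Vil1 in Tuft cells and Cdhr5 in Microfold cells kept their direction and call under each alternative run. Over all cells, 3 of the 10 genes fell, against 6 with DESeq2, 5 without Tuft cells, 1 with the replicate block (0.816%, 0.231% and 0.0279% of all genes under these settings) and 1 to 4 with 1 sample left out. In Tuft cells 3 fell, against 5 with DESeq2, 6 without the filter on low counts (0.442% and 0.737% of all genes) and 2 to 4 with 1 sample left out. In Neuroendocrine cells 3 fell, against 6 without the filter (0.886% of all genes) and 2 to 3 with 1 sample left out. In Microfold cells 3 fell, against 5 with DESeq2, 7 without the filter, 1 with the replicate block, 1 with at least 20 cells per sample (1.38%, 2.09%, 1.08% and 1.18% of all genes) and 1 to 2 with 1 sample left out. In the other 8 classes together 0 fell, against 2 with DESeq2, 8 without the filter, 1 with the replicate block (0.0444%, 0.391% and 0.011% of all gene tests) and 0 to 2 with 1 sample left out. Of all genes, 38 fell over all cells, against 189 with DESeq2 and as few as 2 with 1 sample left out. The shares of all genes that fell with 1 sample left out were 0.00917% to 0.142% over all cells and 0.0324% to 0.156% in Tuft cells. They were 0.0898% to 0.334% in Neuroendocrine and 0.4% to 1.32% in Microfold cells. For the other 8 classes and for the interaction such shares are not given. The effect differed between classes for 1 gene, against 4 without the filter (3.11% of all genes) and 0 to 1 with 1 sample left out. With 1 sample left out, log2 fold changes spanned 0 for Ush1c (-0.49 to 0.064) and Myo1a (-0.81 to 0.065) over all cells, Cdh17 in Neuroendocrine cells (-0.50 to 0.23) and Pls1 in Tuft cells (-0.13 to 0.047), positive without control 3 for the first 3 of these and without control 2 for Pls1. None of these 4 passed under any alternative. The causes were not tested. The replicate block used samples 1 to 3 of each genotype, which share only a number: deviations from the group means correlated at 0.229, 0.0835 and 0.043 between same-numbered samples, and mutant 2 correlated at 0.186 with control 1. The highest of all pairs was mutant 4 with control 3, at 0.413, and the lowest was mutant 4 with control 1, at -0.353. In Microfold cells Anks4b, Vil1 and Calml4 rest on 3, 5 and 12 mutant UMIs.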
